A study of Mus musculus and Homo sapiens
Mus musculus with 12 samples.

Results

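The collagen genes were followed in 2 established cell lines that had been mixed before single-nucleus total RNA sequencing: 293T, a human embryonic kidney line, and 3T3, a mouse embryonic fibroblast line. The members are all genes whose symbol is COL, a number, A and a number, with case ignored. There were 88 of them among 116955 features, 44 of 61541 human features read in 293T nuclei and 44 of 55414 mouse features read in 3T3 nuclei. Of these, 43 formed orthologue pairs by symbol, while human COL21A1 and mouse Col6a4 had no partner.

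Collagens are secreted or membrane-bound proteins in which chains with a glycine in every triplet of residues wind around each other into a rigid helix. Fibrillar collagens (types I, III, V and XI among others) build the fibres of connective tissue and are the main product of fibroblasts. Type IV collagen forms the sheet of basement membranes, including the filter of the kidney glomerulus, type VI forms beaded filaments around cells, and the FACIT collagens (fibril-associated collagens with interrupted helices) decorate fibrils, while the transmembrane collagens sit in the plasma membrane of the cell that makes them.

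The study developed a droplet method that primes total RNA with random primers in fixed nuclei, and the 2 lines were mixed in equal parts to see how often a barcode held RNA of both species. Both lines were grown in DMEM with FBS, with no treatment or edited allele named. The library without a named loading is called preindexed here. The study describes a mix of these lines in which nuclei were preindexed. That is, they received a barcode in the reverse transcription primer before the droplet step. The other 4 libraries form a loading series to measure contamination. Their nuclei were loaded at 300, 600, 1200 or 2000 × 1000 per ml. The labels do not state which of the 5 libraries were preindexed, so the name only marks the library without a named loading. A part of preindexing in its differences from the loading series was not tested. No label names separate cultures or a separate mixing for any of the 5 libraries, so p-values measure the spread between these libraries, which may be technical, and since each line is of its own species, line and species cannot be told apart.

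A nucleus was counted for a line when at least 90% of its unique fragment identifiers (UFIs, the molecule counts of this method) fell on that species. This gave 1133, 2073, 4022, 5153 and 10181 nuclei of 293T and 1170, 1668, 3023, 3725 and 7476 of 3T3 in the preindexed library and at loadings of 300, 600, 1200 and 2000. The libraries held 14097151 to 35223112 UFIs, and the median own-species UFIs per nucleus fell from 14144 (293T) and 10722 (3T3) in the preindexed library to 894 and 756 at the loading of 2000. UFIs of the other species, which the 90% rule limits, made up 0.777 to 2.21% of those in the nuclei, and any 2 libraries shared 0 to 93 barcodes. Levels below are in CPM, the UFIs of a gene per 1000000 own-species UFIs, both summed over the nuclei of a line in a library.

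The labelled lines were checked against their markers. The fibroblast list summed to 2315 to 4607 CPM in 3T3 and to 161 to 195 CPM in 293T, and 10 of its 11 tested pairs were higher in 3T3 (PDGFRA, the receptor for platelet-derived growth factor, by 11.47 ± 0.79 log2 units, adjusted p = 4.15e-05 in the edgeR quasi-likelihood test). The exception was TWIST1. Among all 11932 orthologue pairs tested in the same fit, 37.4% were higher in 3T3 and 39.3% higher in 293T. The epithelial and kidney list did not separate the lines by its sum, at 221 to 441 CPM in 293T and 160 to 413 CPM in 3T3. Its cadherin CDH2 was at 154 to 325 CPM in 293T and 153 to 402 CPM in 3T3. Of its 8 tested pairs, 6 were higher in 293T and none in 3T3. With the loading series summed to 1 library, 6 of 9 tested pairs were higher in 293T and 1 in 3T3. PAX8, too low to test in the main fit, ran the other way, at 0.103 to 0.711 CPM in 293T and 0.708 to 5.77 CPM in 3T3. Keratin KRT8 was at 5.85 CPM in the preindexed and 18 to 24.3 CPM in the loading libraries of 293T against at most 0.177 CPM in 3T3, and SALL1 was at 12.3 to 20.5 CPM in 293T with no UFI in 3T3. The defining markers of immune, endothelial, liver and muscle cells summed to at most 53.4 CPM in 293T and 34 CPM in 3T3.

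Collagen RNA as a whole was about 2 times as abundant in 3T3 as in 293T, and the lines drew it from different classes. In 293T all collagen genes together were at 2036 CPM in the preindexed library and at 1502, 1489.9, 1510.3 and 1467 CPM along the loading series. In 3T3 they were at 4144 CPM in the preindexed library and at 3085, 3075, 3015 and 3021 CPM. Every 3T3 sum lay above every 293T sum. The log2 ratio of the sums was 1.03 ± 0.02 (SD, n = 5 libraries) and was positive in 5 of 5, with p = 0.0625 in the two-sided exact permutation test over sign flips, which is the smallest p that 5 pairs allow. Without the most abundant gene of each line, COL4A5 and Col5a2, the mean log2 ratio was 0.81 ± 0.32 (SD, n = 5 libraries). It then ran from 0.63 to 1.37, so the close agreement of the libraries in the ratio rests on these genes. All sums are in CPM, without division by gene length and without the further scaling (TMM) used in the fits of pairs below. The factors of that scaling were 1.05 to 1.15 for 293T and 0.867 to 0.940 for 3T3, so it raises 3T3 against 293T. The sums were not tested with it.

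Fibrillar genes were the largest class of collagen RNA in 3T3: 1852 CPM in the preindexed library and 1932 to 1996 CPM in the loading series, or 44.7% and 64.0 to 64.7% of its collagen UFIs. Of this sum, Col5a2 alone held 167 CPM in the preindexed library and 1258 to 1355 CPM in the loading series, so the loading sum rests mostly on 1 gene. In 293T the same class was at 186 CPM and 141 to 142 CPM, or 9.12% and 9.32 to 9.69%. The basement membrane genes led in 293T with 829 CPM and 728 to 768 CPM, which is 40.7% and 49.6 to 50.8% of its collagen UFIs. In 3T3 they reached 1224 CPM in the preindexed library, more than 293T, and 589 to 623 CPM in the loading series, less than 293T, so their order in CPM depended on the library. Whether that order holds with the TMM scaling, which raises 3T3 against 293T, was not tested. Transmembrane genes held 784 CPM (38.5%) of 293T collagen in the preindexed library and 221 to 230 CPM (14.6 to 15.5%) in the loading series, while their sum in 3T3 was 6.45 to 15.6 CPM. Most of the 293T sum was COL25A1, at 667 CPM in the preindexed library and 188 to 198 CPM in the loading series.

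**Figure D1:**
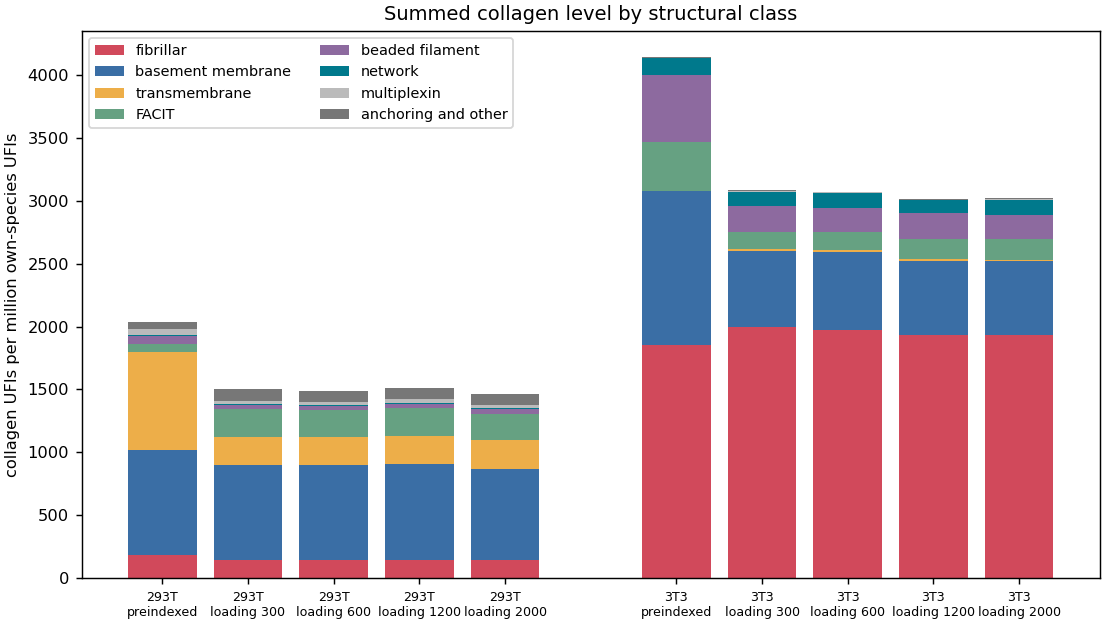
Summed level of each collagen class in CPM, stacked per library, for 293T (human genes) and 3T3 (mouse genes). Fibrillar genes hold the largest part in 3T3 (1852 to 1996 CPM), basement membrane genes in 293T (728 to 829 CPM), and the preindexed bars differ in make-up from the 4 loading bars of the same line. In the loading bars, Col5a2 alone holds 1258 to 1355 CPM of the 3T3 fibrillar part.

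The classes differ in sequence in the way their names describe. The chains were read from the mouse annotation (GENCODE M21, GRCm38) by counting unbroken runs of 3 or more triplets of codons that each start with a glycine codon. The longest run of the 11 fibrillar genes was 216 to 344 triplets, with 2 to 5 runs per chain. The 6 basement membrane chains had longest runs of 39 to 66 triplets and 23 to 27 separate runs, so their helix is broken many times. The 9 FACIT chains had longest runs of 32 to 113 triplets. Stretches of the leading genes of both classes are shown because the interruption that parts them is visible in the letters. The glycine codons of the repeat are in capitals. The Col5a2 stretch is chr1:45396079-45396132 (minus strand, codons 718 to 735) and the Col1a2 stretch is chr6:4527082-4527135 (plus strand, codons 604 to 621), both unbroken. The Col4a5 stretch is chrX:141599711-141599800 (plus strand, codons 400 to 429) and the Col4a6 stretch is chrX:141203814-141203903 (minus strand, codons 398 to 427), and in each the repeat is broken by a gap of 2 extra codons. All are written 5′ to 3′ on the strand of the gene and lie in coding exons.
Col5a2: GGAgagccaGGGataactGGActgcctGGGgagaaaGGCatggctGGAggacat
Col1a2: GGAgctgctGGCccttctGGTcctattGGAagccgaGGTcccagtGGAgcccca
Col4a5: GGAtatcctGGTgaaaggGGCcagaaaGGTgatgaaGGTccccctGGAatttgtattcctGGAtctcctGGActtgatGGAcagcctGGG
Col4a6: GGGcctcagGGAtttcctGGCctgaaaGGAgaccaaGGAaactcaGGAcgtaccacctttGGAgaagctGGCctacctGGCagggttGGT

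**Figure D2:**
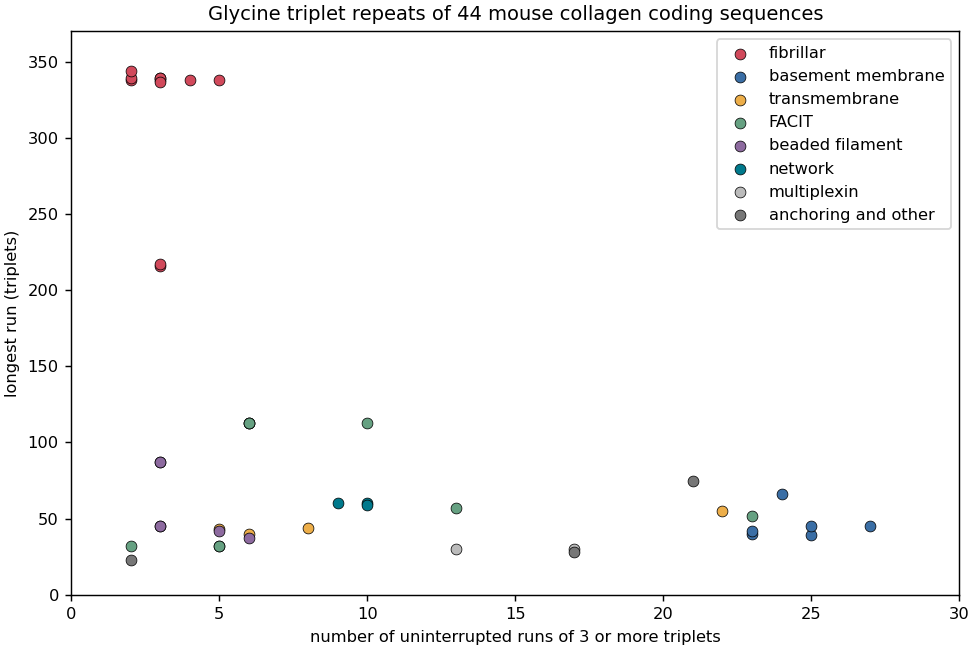
Number of unbroken runs of 3 or more glycine triplets (x axis) against the longest run in triplets (y axis), 1 point for each of 44 mouse collagen coding sequences, coloured by class. Fibrillar chains sit at the upper left (2 to 5 runs, the longest of 216 to 344 triplets) and basement membrane chains at the lower right (23 to 27 runs, the longest of 39 to 66 triplets).

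All chains of collagen types I and III were higher in 3T3 in every library. Col1a2 (ENSMUSG00000029661), the partner chain in type I collagen, was at 649.6 CPM in the preindexed library of 3T3 and at 340.1, 356, 360.4 and 343 CPM at loadings of 300, 600, 1200 and 2000. Its human partner COL1A2 had no UFI in 293T in any library, which with a floor of 3 counts over the 5 libraries makes the gene at least 8938-fold higher in 3T3 (adjusted p = 0.000393, edgeR). Col1a1, the main chain of type I collagen, was at 610.5 CPM in the preindexed library and 74.9, 88.7, 87.2 and 90.8 CPM along the loading series. All 5 values stood far above those of COL1A1 in 293T, which were 7.80 CPM and 9.20, 8.13, 10.0 and 9.51 CPM. The log2 difference was 4.04 ± 0.54 (SE) with adjusted p = 0.000665 (edgeR). Col3a1, the type III chain of pliable tissues, was at 157 CPM and at 70.9, 66.1, 57.5 and 63.8 CPM. COL3A1 gave 18 UFIs in 293T over the 5 libraries and at most 0.77 CPM, so the libraries did not overlap. The pair had the largest difference with UFIs in both lines, 8.80 ± 0.52 log2 units (adjusted p = 2.36e-05, edgeR). Along the loading series COL3A1 gave 2, 0, 0 and 1 UFIs in 293T nuclei and 0, 0, 1 and 1 in 3T3 nuclei, which hold no copy of it. Its 293T level is at background there, so the size of this difference is uncertain.

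Type V chains, which start and regulate fibrils, came from both lines at different levels. Col5a2 (ENSMUSG00000026042) was the most abundant 3T3 collagen of the loading series at 1355, 1285, 1273 and 1258 CPM, but reached only 167 CPM in the preindexed library. COL5A2 in 293T was at 10.8 CPM and at 7.84, 9.15, 9.56 and 9.69 CPM, below 3T3 in every library, with a difference of 6.87 ± 0.68 (adjusted p = 0.00018, edgeR). Col5a1 was at 184 CPM and at 71.1, 88.7, 75 and 86.0 CPM. COL5A1 of 293T was lower but expressed, at 39.6 CPM and at 16.7, 15.8, 18.1 and 17.5 CPM, and the 2 lines did not overlap (2.50 ± 0.12, adjusted p = 1.1e-05, edgeR). Col5a3 was the minor type V chain at 15.4 CPM and 28.4 to 31.7 CPM against 0.257 CPM and 0.826 to 1.93 CPM in 293T (5.01 ± 0.31, adjusted p = 2.86e-05, edgeR). The preindexed value of COL5A3 in 293T is at background, with 5 UFIs there and 12 in the 3T3 nuclei, which hold no copy of the gene. Col11a1, a cartilage chain that joins type V fibrils, was at 7.45 CPM in the preindexed library and 47.1, 50.2, 47.1 and 50.3 CPM in the loading series of 3T3, and COL11A1 of 293T stayed at 0.873 to 3.96 CPM (4.12 ± 0.26, adjusted p = 3.05e-05, edgeR).

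COL24A1 and COL27A1 ran the other way, while COL11A2, below 3 CPM in both lines, did not pass (−0.28 ± 0.50, adjusted p = 0.627, edgeR). COL24A1, a fibrillar chain described in developing bone, was at 39.3 CPM and 58.6, 66.6, 59.2 and 61.0 CPM in 293T, with Col24a1 at 2.00 to 4.09 CPM in 3T3. COL27A1, a fibrillar chain of cartilage, was at 84.7 CPM and 36, 29.4, 30.7 and 32.7 CPM in 293T, with Col27a1 at 54.7 CPM in the preindexed but 4.25 to 4.56 CPM in the loading libraries of 3T3. COL24A1 and COL27A1 were higher in 293T in all 5 libraries, by 3.98 log2 units for COL24A1 (SE 0.26, adjusted p = 3.19e-05, edgeR) and 2.14 for COL27A1 (SE 0.39, adjusted p = 0.00262), but the COL27A1 libraries of the 2 lines overlapped across the series. With the loading series summed to 1 library, an alternative chosen after the values were seen because its 4 libraries lay close together, COL27A1 was no longer past the threshold (adjusted p = 0.161).

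**Figure D3:**
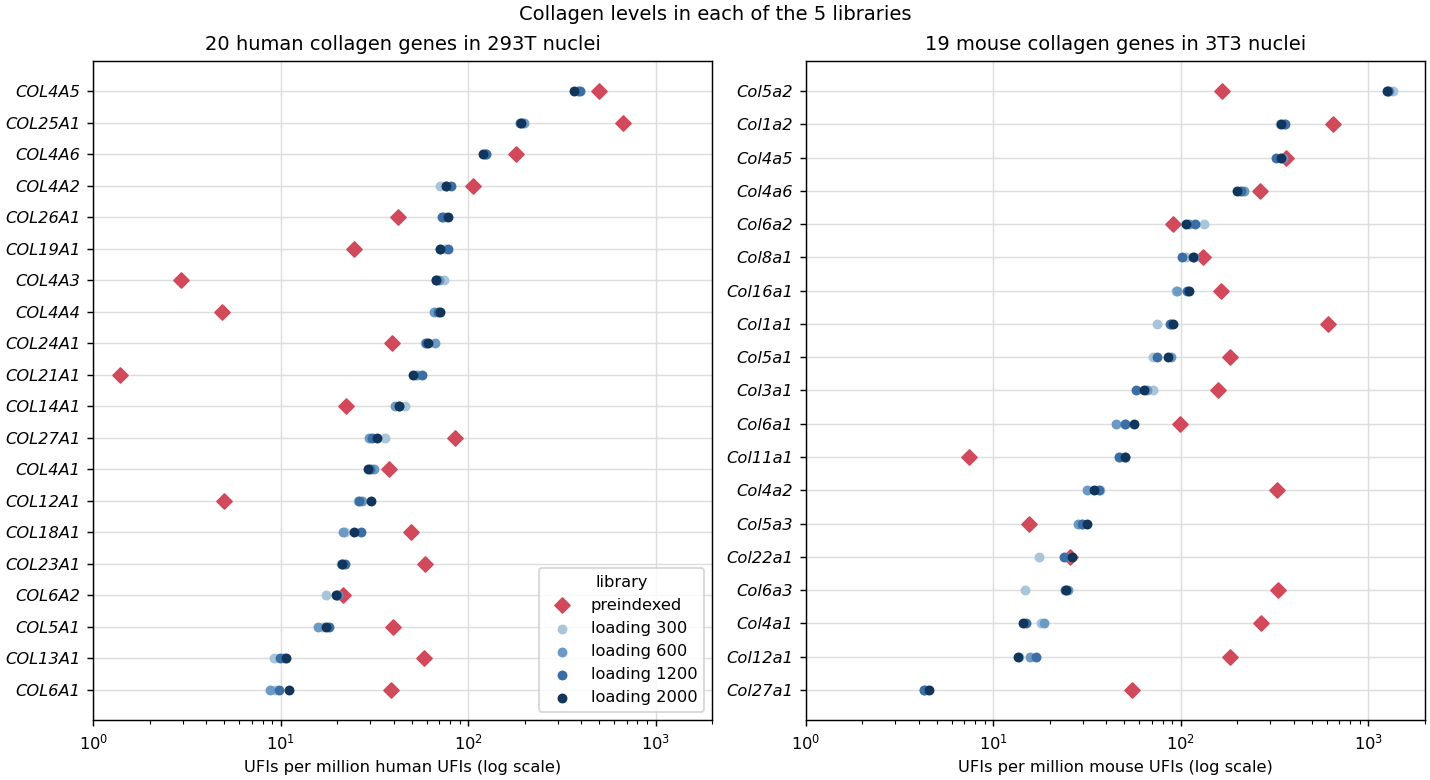
Level of each collagen gene with a mean of at least 10 CPM in its line, by library (x axis, CPM on a log scale; diamonds, preindexed library; circles, loading libraries), for 20 human genes in 293T and 19 mouse genes in 3T3. The 4 loading libraries lie close together for nearly every gene, and the preindexed library stands apart, for example at 167 CPM against 1258 to 1355 CPM for Col5a2.

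Type IV collagen was high in both lines. COL4A5 (ENSG00000188153), a chain of the kidney and smooth muscle basement membrane that is altered in Alport syndrome, was the most abundant collagen of 293T in the loading series at 386, 388, 397 and 365 CPM and was at 498 CPM in the preindexed library. Its partner Col4a5 was at 362 CPM and at 337, 352, 323 and 343 CPM in 3T3. Although the lowest 293T value lay above the highest 3T3 value, the fitted difference after TMM scaling was 0.03 ± 0.10 and did not pass the test (adjusted p = 0.79, edgeR), and with no scaling it was −0.31 (adjusted p = 0.0116), so direction and call both rest on the scaling. The call rests on the preindexed library too, since without it COL4A5 passed as higher in 3T3 (0.17, adjusted p = 2.39e-06). COL4A6, the chain that joins COL4A5 in the same helix, was at 179 CPM and 125, 123, 124 and 120.3 CPM in 293T. Col4a6 was at 264 CPM and 208, 216, 210.0 and 198 CPM in 3T3, and all 5 lay above all of 293T (0.99 ± 0.09, adjusted p = 0.000131, edgeR), but the pair did not pass with the loading series summed (adjusted p = 0.198).

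COL4A1 and COL4A2, the chains found in nearly every basement membrane, differed in opposite directions in the preindexed and the loading libraries. COL4A1 was at 37.8 CPM and 30.7, 31.5, 30.1 and 29.2 CPM in 293T, and Col4a1 was at 268 CPM and 18, 18.6, 14.9 and 14.4 CPM in 3T3. COL4A2 was at 106 CPM and 70.8, 76.3, 80.9 and 76.0 CPM in 293T, and Col4a2 was at 328 CPM and 37.3, 31.5, 36.8 and 34.3 CPM in 3T3. In both pairs 3T3 was higher in the preindexed library and lower in the 4 loading libraries. The fits over 5 libraries gave 0.01 ± 0.63 (COL4A1, adjusted p = 0.993) and −0.35 ± 0.45 (COL4A2, adjusted p = 0.496), and without the preindexed library −0.54 (adjusted p = 1.9e-06) and −0.78 (adjusted p = 7.07e-15, all edgeR), where the spread is that of the loading libraries alone.

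COL4A3 and COL4A4, the chains that replace them in the mature glomerular filter, were read mainly in the loading series of 293T. COL4A3 was at 2.93 CPM in the preindexed library and 74.1, 69.7, 67.0 and 67.0 CPM in the loading series. COL4A4 was at 4.88 CPM in the preindexed library and 70.6, 66, 69.0 and 70.6 CPM in the loading series. In 3T3 Col4a3 was at 0.806 to 3.24 CPM and Col4a4 at 0.854 to 2.40 CPM, below 293T in every library, with differences of −3.96 ± 0.48 (adjusted p = 0.000417) and −4.50 ± 0.63 (adjusted p = 0.000824, edgeR). The preindexed 293T value of COL4A3 lay within the 3T3 range, so the libraries of that pair overlapped.

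The type IV genes sit in head-to-head pairs that share the stretch between their start sites, and the members of a pair stood on the same side between the preindexed and the loading libraries. In log2 units of preindexed over pooled loading level, COL4A3 and COL4A4 were at −4.16 and −3.57, COL4A1 and COL4A2 at 0.31 and 0.48, and COL4A5 and COL4A6 at 0.38 and 0.54 in 293T. In 3T3 Col4a1 and Col4a2 were at 3.96 and 3.20, and Col4a5 and Col4a6 at 0.10 and 0.35. Over all collagens with at least 10 CPM the median was 0.34 in 293T and 0.89 in 3T3, so 2 positive values in a pair are no sign of a link. A part of the shared stretch in this was not tested. These are single libraries against a series and carry no test, and Col4a3 and Col4a4 in 3T3 are near the floor. In the mouse annotation Col4a1 and Col4a2 overlap by 22 bases at their starts, where reads of the 2 genes could be split by the counting. Col4a4 and Col4a3 on chromosome 1 start 71 bases apart, and Col4a6 and Col4a5 on chromosome X start 1308 bases apart. The 71 bases and the 150 bases before the starts of Col4a5 and Col4a6 are shown beside those of Col3a1 and Col6a3, a fibrillar and a beaded filament gene that were called higher in 3T3 with UFIs of 293T near 0. The sequences are from RefSeq promoters on GRCm38.p6, 5′ to 3′ on the strand of the gene, at chrX:141475235-141475384 (Col4a5, plus), chrX:141474077-141474226 (Col4a6, minus), chr1:45311388-45311537 (Col3a1, plus), chr1:90843972-90844121 (Col6a3, minus) and chr1:82586850-82586920 (Col4a4 to Col4a3, plus strand shown). Capitals mark matches, on either strand, to any of 3 short promoter motifs. These were TATAAA, the core of the box that positions many transcription starts. They were also CCAAT, known as a binding site of the factor NF-Y, and the GC box of Sp1 family factors, spelled GGGCGG.
Col4a3 and Col4a4: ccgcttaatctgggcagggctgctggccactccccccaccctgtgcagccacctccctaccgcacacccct
Col4a5: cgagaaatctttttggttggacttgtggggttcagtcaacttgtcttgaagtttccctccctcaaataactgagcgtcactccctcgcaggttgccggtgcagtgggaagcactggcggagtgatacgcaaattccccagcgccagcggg
Col4a6: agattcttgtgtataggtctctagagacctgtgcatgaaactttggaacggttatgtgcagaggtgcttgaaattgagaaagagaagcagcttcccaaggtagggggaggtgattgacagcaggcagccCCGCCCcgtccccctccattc
Col3a1: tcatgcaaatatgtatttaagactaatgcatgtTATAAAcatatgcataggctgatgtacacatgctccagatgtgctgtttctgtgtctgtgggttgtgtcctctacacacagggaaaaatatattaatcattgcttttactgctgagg
Col6a3: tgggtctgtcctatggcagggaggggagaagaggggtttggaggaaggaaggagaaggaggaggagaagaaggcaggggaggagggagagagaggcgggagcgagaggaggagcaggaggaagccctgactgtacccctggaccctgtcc

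Col3a1 holds a TATAAA match and Col4a6 a GGGCGG match on the other strand, and the other 3 windows hold none of the 3 motifs. The share of GC letters was 69.0% between Col4a4 and Col4a3 and 37.3% before Col3a1. Over the 250 bases before the start, TATAAA stood in 12.4%, CCAAT in 33.8% and GGGCGG in 32.7% of 32851 mouse promoters. Of 38 collagen promoters (35 genes), 5, 13 and 22 held them. These are letter matches and say nothing about binding.

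All 4 tested type VI chains were higher in 3T3. COL6A5, too low to test, was at 0.366 to 2.16 CPM in 293T and at most 0.354 CPM in 3T3, so its levels ran the other way. Col6a3, the long chain of the type VI filament, was at 329 CPM in the preindexed and at 14.8, 24.9, 24.2 and 24.3 CPM in the loading libraries. COL6A3 of 293T gave 26 UFIs in all and at most 0.719 CPM, so the lines did not overlap (7.29 ± 0.56, adjusted p = 6.3e-05, edgeR). Col6a2 was at 91.0 CPM and 134, 111, 119 and 107 CPM against 21.6 CPM and 17.4, 20.2, 20.1 and 19.7 CPM for COL6A2 (2.76 ± 0.16, adjusted p = 2.21e-05, edgeR). It was lower in the preindexed than in the loading libraries, unlike its partners. Col6a1 was at 99.2 CPM and 50.3, 45.3, 50.4 and 56.2 CPM against 38.9 CPM and 9.31, 8.74, 9.79 and 11.1 CPM for COL6A1 (2.44 ± 0.22, adjusted p = 0.000126, edgeR). The 3 chains were thus all higher in 3T3 in every library, and so was the low gene COL6A6 in the fit (1.73 ± 0.24, adjusted p = 0.000802), although COL6A6 passed no longer with the loading series summed (adjusted p = 0.128). The network collagen Col8a1, a chain of vessel and corneal membranes, was at 131 CPM and 107, 118, 102 and 116 CPM in 3T3 against 3.59 CPM and 5.21 to 7.16 CPM in 293T (4.59 ± 0.22, adjusted p = 1.27e-05, edgeR).

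The FACIT genes split between the lines. Col16a1 was at 164 CPM and 94.4, 95, 108 and 111 CPM in 3T3, with COL16A1 at 0.354 to 1.46 CPM in 293T (7.09 ± 0.32, adjusted p = 1e-05, edgeR). COL19A1 was at 24.7 CPM and 75.5, 70.7, 77.6 and 70.3 CPM in 293T, with Col19a1 at 3.36 to 4.43 CPM in 3T3 (−3.59 ± 0.32, adjusted p = 0.000122, edgeR). COL14A1, which binds fibrils together with decorin, was at 22.2 CPM and 46.1, 40.8, 42.6 and 43.0 CPM in 293T, with Col14a1 at 1.28 to 3.01 CPM in 3T3 (−3.90 ± 0.17, adjusted p = 9.53e-06, edgeR). None of these 3 pairs overlapped between the lines. COL21A1, which has no mouse partner here, was at 1.39 CPM in the preindexed library and 54.1, 52.9, 56.7 and 50.9 CPM in the loading series of 293T. COL12A1, a collagen of tendon and tense tissue, was at 4.98 CPM and 25.8, 27.2, 26.2 and 30.3 CPM in 293T, and Col12a1 at 184 CPM and 13.6, 15.7, 16.8 and 13.5 CPM in 3T3. The preindexed library had 3T3 above 293T and the loading libraries 293T above 3T3, and the fit over both gave 0.16 ± 0.96 (adjusted p = 0.889, edgeR) and without the preindexed library −0.54 (adjusted p = 7.38e-06).

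Col22a1, a collagen of tissue junctions, was at 25.5 CPM and 17.4, 25.7, 23.7 and 26.2 CPM in 3T3, with COL22A1 at 4.72 CPM and 9.56 to 10.9 CPM in 293T (1.68 ± 0.25, adjusted p = 0.00111, edgeR). The human gene stands beside a high background, since in the preindexed library it gave 113 UFIs in 3T3 nuclei, which hold no copy of it, against 92 in 293T nuclei. With that background taken off, the difference was 2.12 and no longer passed (adjusted p = 0.0984), and with the loading series summed the adjusted p was 0.0628.

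Of the transmembrane genes, COL25A1 and COL23A1 were higher in 293T, COL13A1 did not pass, and COL17A1 was too low to test, at most 1.06 CPM in 293T and 1.60 CPM in 3T3. COL25A1 (ENSG00000188517), a collagen first found with brain amyloid plaques and needed for muscle innervation, was at 667 CPM in the preindexed library, more than any other collagen of the line there, and at 196, 198, 188 and 192 CPM in the loading series. Col25a1 in 3T3 was at 2.28 to 4.81 CPM, and the difference was the largest of those higher in 293T, −5.90 ± 0.38 (adjusted p = 3.04e-05, edgeR). COL23A1 was at 58.7 CPM and 20.9, 21.2, 21.9 and 21.1 CPM in 293T, with Col23a1 at 1.75 to 2.71 CPM in 3T3 (−3.35 ± 0.39, adjusted p = 0.000349, edgeR). COL13A1, a collagen of cell adhesion sites, was at 57.8 CPM and 9.20, 10.4, 9.91 and 10.6 CPM in 293T, and Col13a1 at 0.269 CPM and 3.13 to 6.61 CPM in 3T3. Every 293T value of COL13A1 lay above every 3T3 value, but the difference of −1.71 ± 1.00 did not pass (adjusted p = 0.16, edgeR), whereas without the preindexed library it was −0.84 and passed (adjusted p = 5.31e-05). COL26A1 was at 42.0 CPM and 75.8, 73.8, 72.4 and 77.5 CPM in 293T against 0.739 to 2.40 CPM in 3T3 (−5.23 ± 0.23, adjusted p = 9.03e-06, edgeR). COL18A1, the basement membrane proteoglycan that releases endostatin, was at 49.2 CPM and 22, 21.3, 26.8 and 24.5 CPM in 293T against 3.63 to 5.62 CPM in 3T3 (−2.27 ± 0.32, adjusted p = 0.000878, edgeR). At loadings of 300, 600 and 1200, Col23a1 gave 13, 11 and 11 UFIs in 3T3 nuclei and 9, 11 and 9 in 293T nuclei. Its 3T3 level is at or near background there, so the size of the COL23A1 difference is uncertain. Over all libraries Col23a1 gave 80 UFIs in 3T3 and 37 in 293T nuclei. The libraries of COL23A1, COL25A1, COL26A1 and COL18A1 did not overlap between the lines either.

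Over all members, 36 of the 43 pairs had enough UFIs to be tested, and 28 of the 36 differed between the lines at an adjusted p under 0.05 (edgeR), 16 higher in 3T3 and 12 higher in 293T. Among all 11932 orthologue pairs tested, 76.7% differed, 37.4% higher in 3T3 and 39.3% higher in 293T, so a call by itself does not set the collagens apart. With a difference of at least 4-fold required, 23 collagen pairs remained (12 and 11), where the share over all pairs was 36.7% (15.4% and 21.3%). The libraries of the lines did not overlap for 27 of the 36 pairs, 15 with 3T3 above and 12 with 293T above, where the share over all pairs was 58.5%. The median log2 difference was 0.02 over the collagen pairs and −0.08 over all pairs.

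By class, 7 of 10 fibrillar pairs tested were higher in 3T3 and 2 in 293T (median log2 difference 4.08), and all 4 beaded filament pairs were higher in 3T3 (median 2.60). Of 6 basement membrane pairs 1 was higher in 3T3 and 2 in 293T (median −0.17), and of 8 FACIT pairs 3 and 2 (median −0.00). The 3 pairs of the anchoring and other group were all higher in 293T, as were 2 of 3 transmembrane pairs. The fit with the loading series summed to 1 library tested more pairs, so its counts are not of the same sets. They were 7 and 1 of 10 for fibrillar, 3 and 0 of 5 for beaded filament and 0 and 2 of 6 for basement membrane genes. They were 1 and 3 of 9 for FACIT, 0 and 2 of 4 for transmembrane and 0 and 1 of 3 for anchoring and other genes. Of the calls, 27 of 28 stood in all 5 fits that left out a library; COL20A1, a FACIT gene at under 5 CPM in both lines, was lost in 3 of these. Taking the loading series as 1 library left 21 of the 28 past the threshold. In that fit 21 of the 36 collagen pairs tested in the main fit passed, where 29.4% of all 13429 pairs tested in it did so. Without the preindexed library 35 of 39 tested pairs passed, with a background of 91.3%. The 7 pairs that were too low to test were COL2A1, COL6A5, COL8A2, COL9A2, COL10A1, COL15A1 and COL17A1.

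**Figure D4:**
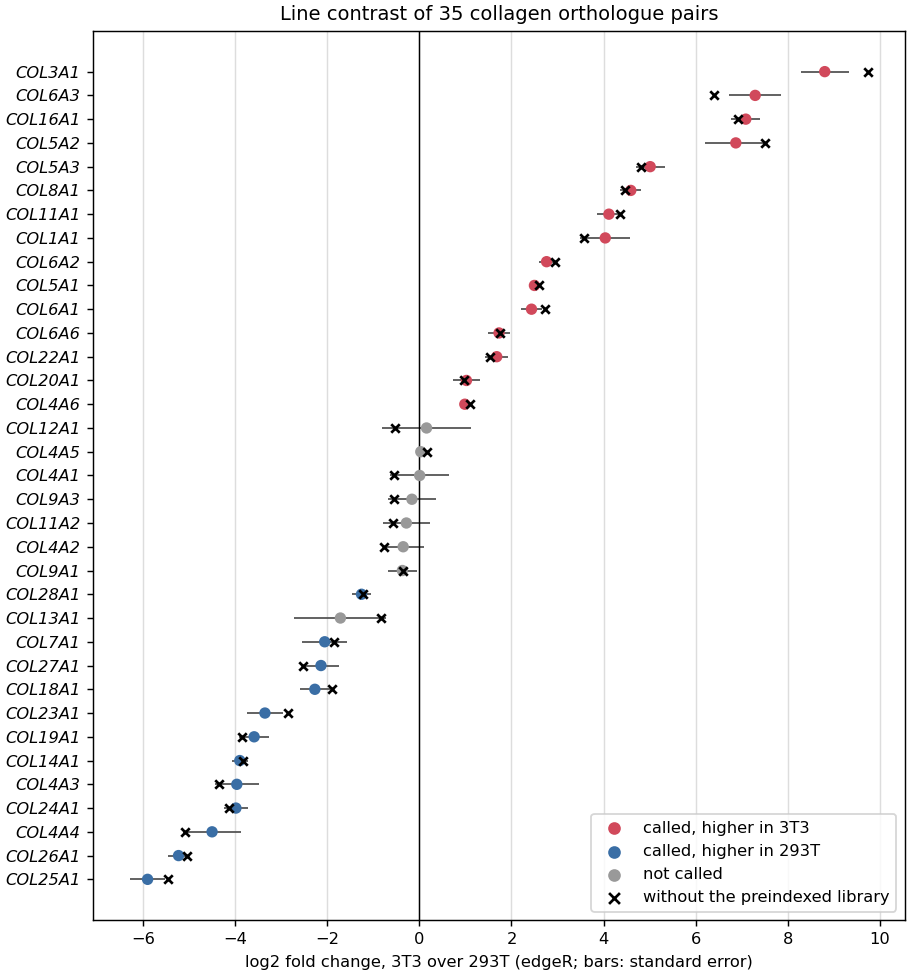
Log2 difference between 3T3 and 293T (edgeR fit, error bars 1 SE) for 35 of the tested collagen orthologue pairs, COL1A2 being left out for its count of 0 in 293T. Red and blue points passed an adjusted p of 0.05 (higher in 3T3, up to COL3A1 at 8.80, and higher in 293T, down to COL25A1 at −5.90), grey points did not, and crosses give the value without the preindexed library.

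Within 3T3, levels were compared between genes after division by length. Since it is not known whether intronic reads were counted, both exon length and whole-gene length were used. Per kilobase of exon, the highest levels of the loading series were Col5a2 at 134, Col4a5 at 50.5, Col1a2 at 28.2, Col4a6 at 26.1 and Col16a1 at 15.2 CPM, with Col1a1 further down at 13.1 CPM. The highest of the preindexed library were Col1a1 at 93.0, Col4a5 at 53.9, Col1a2 at 52.3, Col4a2 at 49.6 and Col4a1 at 35.9 CPM, with Col5a2 further down at 17.4 CPM. Per kilobase of the whole gene with introns, Col5a2 stood at 9.99 and Col1a2 at 9.53 CPM in the loading series, and Col1a1 led in the preindexed library at 36.3 CPM. Per kilobase of exon, the first place thus changed from the type V to the type I chain with the library. Per kilobase of the whole gene, Col5a2 and Col1a2 lay close together in the loading series, so the first place there is not clear. Col5a2 spans chr1:45374321-45503282 on the minus strand, Col1a1 spans chr11:94936224-94953042 and Col1a2 chr6:4504814-4541544, both on the plus strand (GRCm38).

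The preindexed library differed from the loading series far more than the loading libraries differed from each other. The spread among the 4 loading libraries was small but above that of counting alone (a value of 1), with a chi-square per degree of freedom of 1.68 over all 293T genes, 1.61 over all 3T3 genes, and 1.31 and 2.09 over the collagens. In 293T, 12 of the 20 collagens with at least 10 CPM differed at least 2-fold between the preindexed library and the pooled series, 7 higher and 5 lower, where 29.3% of all genes did so (13.6% higher, 15.8% lower). COL21A1 was 38.6-fold, COL4A3 23.7-fold, COL4A4 14.2-fold, COL12A1 5.53-fold and COL19A1 2.97-fold lower in the preindexed library, while COL13A1 was 5.74-fold, COL6A1 3.98-fold and COL25A1 3.44-fold higher. In 3T3, 10 of 19 differed at least 2-fold, 8 higher and 2 lower, where 40.3% of all genes did so (23.2% higher, 17.1% lower). Col4a1 was 16.4-fold, Col6a3 14.7-fold, Col27a1 12.5-fold, Col12a1 12.4-fold, Col4a2 9.42-fold and Col1a1 7.09-fold higher in the preindexed library, while Col5a2 was 7.73-fold and Col11a1 6.55-fold lower. COL12A1 was lower in the preindexed library in 293T while its mouse partner was higher there in 3T3. With 1 preindexed library these folds carry no test.

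The levels of mitochondrial RNA, MALAT1 and GAPDH moved with the same split. Mitochondrial UFIs made up 14.0% of the preindexed and 2.67 to 3.08% of the loading libraries in 293T, and 4.92% and 0.675 to 0.698% in 3T3. The nuclear RNA MALAT1 was at 967 CPM against 3198 to 3611 CPM in 293T and Malat1 at 7156 CPM against 23717 to 25335 CPM in 3T3, while the mRNA of GAPDH was at 178 CPM against 5.76 to 8.29 CPM in 293T. Their part in the collagen differences was not tested. Across the 19 mouse collagens the Spearman correlation of genomic span with the log2 preindexed over loading level was −0.237, and across 8212 mouse genes it was −0.226, which describes genes of the same libraries and not independent replicates.

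Most nuclei held collagen RNA. With each nucleus thinned to 1000 own-species UFIs, which left out nuclei with fewer, 84.1% of preindexed and 73.7 to 74.9% of loading 293T nuclei held at least 1 collagen UFI, and 96.5% and 91.7 to 93.3% of 3T3 nuclei. The thinning kept 1133, 1987, 3776, 3802 and 4130 nuclei of 293T and 1170, 1451, 2344, 2426 and 2189 of 3T3 in the preindexed library and along the loading series. Without thinning, 70.6 to 99.9% of 293T and 85.0 to 100% of 3T3 nuclei held one, falling with depth. The means and variances that follow come from a separate draw of the same thinning. The mean number of collagen UFIs per 1000 was 2.06 in preindexed and 1.48 to 1.51 in loading 293T nuclei, and 4.16 and 2.95 to 3.16 in 3T3 nuclei. The variance over the mean was 1.17 to 1.23 in 293T and 1.27 to 1.59 in 3T3, above the value of 1 that counting alone gives in both lines.

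At 1000 UFIs the leading genes were found in a minority of nuclei, with the exception of Col5a2. Col5a2 was detected in 15.2% of the preindexed 3T3 nuclei (95% Clopper-Pearson interval 13.2 to 17.4%) and in 64.4 to 65.5% of the loading nuclei. Col1a2 was detected in 45.2% and 25.4 to 29.4%, and Col1a1 in 39.6% and 6.89 to 8.23%. COL4A5 was detected in 37.3% of preindexed and 28.3 to 30.8% of loading 293T nuclei, and COL25A1 in 45.9% and 15.6 to 17.0%. COL4A3 was detected in 0.353% (0.0963 to 0.901%) and 6.37 to 6.59%. For these genes the shares at equal depth differed between the preindexed and loading libraries in the same directions as the levels. Both come from the same counts, so the shares are no separate evidence. Nuclei of the other species hold no copy of these genes and gave a background: unthinned, COL4A5 was seen in 3.25% of preindexed and 0.709 to 1.92% of loading 3T3 nuclei, and Col5a2 in 1.32% and 1.68 to 5.89% of 293T nuclei. Summed over libraries, UFIs in the wrong line were 0.550 to 2.33% (median 1.24%) of those in the own line for the 20 human genes and 0.911 to 3.95% (median 1.64%) for the 19 mouse genes. Intervals and floors cover counting error only.

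Col1a1 and Col1a2, chains of the same helix, were both detected in 20.5% of the thinned preindexed 3T3 nuclei, where independent detection would give 17.9%, and in 1.86 to 2.79% of the loading nuclei, where it would give 1.75 to 2.30%. In thinned 3T3 nuclei the correlation of Col1a1 with Col1a2 was 0.174 in the preindexed library and 0.015 to 0.080 in the loading libraries, and that of COL4A5 with COL4A6 in 293T was 0.066 and 0.015 to 0.038. In counts this sparse such values are no finding.

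The genes that modify, fold and process collagen chains went in both directions between the lines, while 6 of 8 tested genes of the matrix around the fibrils were higher in 3T3. All lists were read in the same fit, and the list members were in the same libraries as the collagens. Of 15 genes that hydroxylate or glycosylate the chains, 7 were higher in 3T3 and 6 in 293T (median log2 difference 0.34). Glycosyltransferase COLGALT2 was higher in 293T (20.9 against 0.906 CPM on average, −4.43 ± 0.52, adjusted p = 0.000386, edgeR), and so was the prolyl hydroxylase P3H2 (−2.93), whereas the lysyl hydroxylase PLOD3 (2.52) and the prolyl isomerase PPIB (2.10) were higher in 3T3. Of 11 genes for folding and export, 7 were higher in 3T3 and 2 in 293T (median 0.71). SERPINH1, the collagen chaperone HSP47, was at 98.6 CPM in the preindexed and 32.3 to 34.9 CPM in the loading libraries of 3T3 against 9.81 and 2.73 to 4.37 CPM in 293T (3.52 ± 0.16, adjusted p = 1.06e-05, edgeR). SEC24D, a coat protein of the vesicles that carry procollagen, was also higher in 3T3 (4.09), as were the chaperones HSPA5 (2.99) and CALR (2.25).

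The propeptide-processing genes split evenly, 4 and 4 of 8, with ADAMTS3 (−5.48) and the enhancer PCOLCE2 (−5.39) higher in 293T and PCOLCE (5.25) and ADAMTS14 (3.67) higher in 3T3. Of the 5 lysyl oxidases that cross-link fibrils, 3 were higher in 3T3 and 1 in 293T. LOX was at 655 CPM in the preindexed and 162 to 169 CPM in the loading libraries of 3T3 against 5.29 and 0.354 to 1.14 CPM in 293T (7.86 ± 0.31, adjusted p = 7.19e-06, edgeR). LOXL2 went the other way, at 13.9 to 19.5 CPM in 293T and at most 0.134 CPM in 3T3 (−7.98 ± 0.52, adjusted p = 3.33e-05, edgeR). LOXL1 (3.86) and LOXL3 (1.69) were higher in 3T3.

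Among the receptors, 4 of 7 tested were higher in 3T3 and 2 in 293T: the receptor kinase DDR2 (5.40) and the uptake receptor MRC2 (3.71) in 3T3, and the integrin chains ITGA2 (−4.87) and ITGA1 (−2.97) in 293T. DDR2 was at 456 to 487 CPM in 3T3 and 9.55 to 37.1 CPM in 293T. Of 9 genes tested in the degradation list, which holds proteases and their TIMP inhibitors, 5 were higher in 3T3 and 3 in 293T. The gelatinase MMP2 (6.12), the protease FAP (5.24) and MMP14 (5.08) were higher in 3T3 and MMP15 (−5.28) was higher in 293T. The inhibitors TIMP1 (1.65) and TIMP2 (3.16) are among the 5, and TIMP3 (−0.73) is among the 3. Of 8 genes of the fibril-associated matrix, 6 were higher in 3T3 and none in 293T (median 4.52). The proteoglycan BGN was at 474 CPM in the preindexed and 6.21 to 8.54 CPM in the loading libraries of 3T3, with at most 0.411 CPM in 293T (10.20 ± 0.27, adjusted p = 3.15e-06, edgeR). The adhesive proteins THBS1 (6.43) and THBS2 (5.60) and the collagen-binding SPARC (5.02) were also higher in 3T3. These counts stand beside 37.4% of all pairs higher in 3T3 and 39.3% in 293T. With the loading series summed to 1 library, the pairs higher in 3T3 and in 293T were 1 and 1 for hydroxylation and glycosylation, 4 and 0 for folding and export, 2 and 4 for propeptide processing, 2 and 1 for crosslinking, 3 and 2 for receptors, 4 and 1 for degradation and 5 and 0 for the matrix list. That fit tested 10 receptor and 10 degradation pairs. In it P3H2 (adjusted p = 0.0712, edgeR), PPIB (0.279) and LOXL3 (0.0583) were no longer past the threshold.

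**Figure D5:**
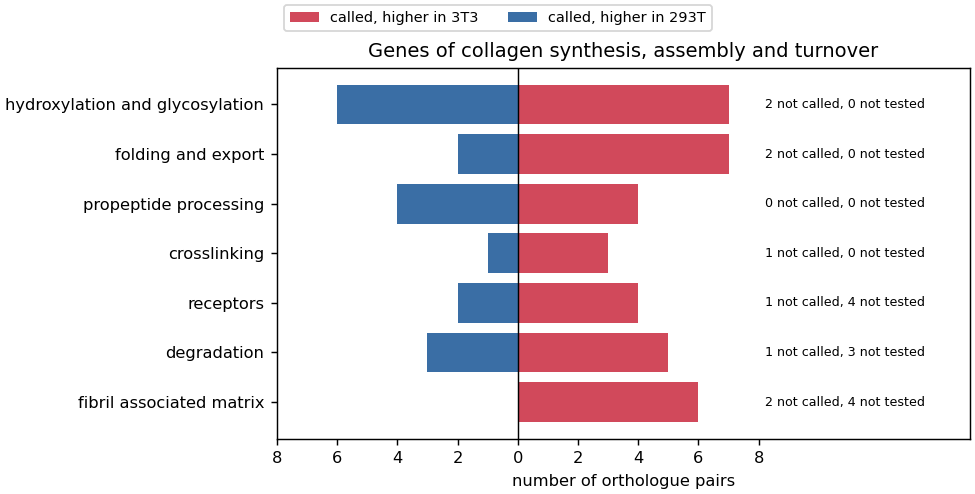
Number of orthologue pairs in each of 7 collagen pathway lists that passed the edgeR test with 3T3 higher (bars to the right) or 293T higher (bars to the left), with the pairs that did not pass or were not tested printed at the right. The fibril-associated matrix has bars to the right alone (6 pairs), and the propeptide-processing genes have 4 on each side.

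The genes below 10 CPM on average were 24 of 44 human collagens, at 0 to 9.65 CPM, and 25 of 44 mouse collagens, at 0.0475 to 6.99 CPM. Some were found in the loading series alone: COL2A1, the cartilage fibril chain, gave no UFI in the preindexed 293T nuclei and 4.43 to 6.96 CPM in the loading libraries, and COL10A1, the chain of growth plate cartilage, no UFI and 1.70 to 2.83 CPM. COL28A1 was at 4.93 CPM and 10.1 to 11.4 CPM in 293T, and COL7A1, the anchoring fibril chain of skin, at 3.42 to 5.60 CPM, against 0.170 to 1.57 CPM for Col7a1 in 3T3. Both were higher in 293T in the fit (−1.26 ± 0.20, adjusted p = 0.0014 for COL28A1; −2.06 ± 0.48, adjusted p = 0.00768 for COL7A1, edgeR), and neither passed with the loading series summed (adjusted p = 0.338 and 0.157).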

How the data were processed

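Single-nucleus total RNA libraries of mixed 293T and 3T3 nuclei were analysed, 1 called preindexed and 4 of a loading series, all in 1 group of 5 libraries. The authors trimmed the reads, extracted barcodes and UFIs and made gene matrices with STARsolo. The submitters' processing notes name GRCh38, GRCm38 and mm10. The annotation and whether intronic reads were counted are not given in the sources used here. The deposited values are raw UFI counts per gene and barcode, not normalized, with 14097151 to 35223112 UFIs per library.

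Nuclei with at least 90% of UFIs on 1 species were assigned to its line (the study allows 75%), and no doublet caller was run beyond this. Counts were summed per library and line, since nuclei are not replicates, and orthologues were paired by unique symbol with case ignored. Pairs were tested with edgeR 4.0.16 in R 4.3.3 (quasi-likelihood test, TMM scaling, filterByExpr, library and line as terms, Benjamini-Hochberg adjustment over all 11932 pairs tested). The library is a block because the nuclei of both lines went through it together. The SE of a pair was derived as its absolute log2 difference over the square root of the F statistic of that test. The summed level was tested by exact sign flips over the 5 libraries. Per-nucleus shares of single genes used nuclei thinned to 1000 UFIs (seed 5) with 95% Clopper-Pearson intervals. The share with any collagen UFI came from a separate draw of the same thinning. Gene coordinates, lengths and coding sequences come from GENCODE M21 (all 44 mouse collagens matched) and promoters from RefSeq on GRCm38.p6. No human lengths were used, so levels per kilobase are compared between genes in 3T3 only. Rankings of genes and classes in CPM, in both lines, are without division by length. The fit was also run on simulated counts in which few pairs differed between the lines. In these data 76.7% of pairs were called, so that run does not show how the fit behaves here.

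Named were all collagens with a mean of at least 10 CPM in their line, up to 10 further collagens from the contrast, and up to 4 genes of each list with the largest called differences at 10 CPM or more in either line. COL2A1, COL6A5, COL9A3, COL10A1, COL11A2, COL17A1, COL20A1, TWIST1, CDH2, PAX8, TIMP1, TIMP2 and TIMP3 were named after their values were seen. The members, lists and tests were chosen with earlier results of these data known. Alternatives tried were DESeq2 1.42.0, other scalings, filters, purities and backgrounds, no block, and leaving out each library. The brain libraries of the series were not used here.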

Additional observations from a re-analysis of the deposited data

Results flagged for a closer look

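For a group of 5 libraries, a value stands apart when its gap to the nearest other value is more than 0.71 of the whole range. Of 42 values tested, 36 stood apart. A rate of about 1 in 20 would hold for 5 libraries of 1 kind. It is no chance level here, since 4 libraries form 1 series and the 42 values share the same libraries. In 35 of them the preindexed library was the one that stood apart, so the pattern is that library against the 4 loading libraries, which lie close together.

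In 293T the preindexed library stood apart on the high side for COL25A1 (667 CPM), COL4A5 (498), COL4A6 (179), COL4A2 (106), COL27A1 (84.7), COL23A1 (58.7), COL13A1 (57.8), COL18A1 (49.2), COL5A1 (39.6), COL6A1 (38.9), COL4A1 (37.8) and the sum of all collagens (2036 CPM). It stood apart on the low side for COL26A1 (42.0 CPM), COL19A1 (24.7), COL14A1 (22.2), COL12A1 (4.98), COL4A4 (4.88), COL4A3 (2.93) and COL21A1 (1.39).

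In 3T3 it stood apart on the high side for Col1a2 (649.6 CPM), Col1a1 (610.5), Col6a3 (329), Col4a2 (328), Col4a1 (268), Col4a6 (264), Col5a1 (184), Col12a1 (184), Col16a1 (164), Col3a1 (157), Col6a1 (99.2), Col27a1 (54.7) and the sum of all collagens (4144 CPM). It stood apart on the low side for Col5a2 (167 CPM), Col5a3 (15.4) and Col11a1 (7.45). The exception was Col22a1, where the library loaded at 300 was low at 17.4 CPM. Values for COL24A1, COL6A2, Col4a5, Col6a2, Col8a1 and the log2 ratio of the sums between the lines did not stand apart. Mitochondrial UFIs (14.0% of preindexed and 2.67 to 3.08% of loading UFIs in 293T) moved with this split, and their part in it was not tested.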

How the results depend on the processing

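Setting each collagen pair beside its value under an alternative, 502 values kept direction and side of the threshold. Another 13 kept direction but were no longer past it, 4 kept direction and newly passed it, and 20 turned direction. The 20 include values that also newly passed, such as COL4A1 at −0.54 without the preindexed library (adjusted p = 1.9e-06, edgeR). The 20 came from 6 pairs that had not passed the test, COL4A1, COL4A2, COL4A5, COL9A3, COL11A2 and COL12A1. Over the fits without 1 library, COL12A1 ran from −0.54 to 0.48, COL4A1 from −0.54 to 0.22, COL4A5 from −0.0151 to 0.17, COL9A3 from −0.56 to 0.15 and COL11A2 from −0.57 to 0.0371. With no scaling beyond library size COL12A1 was at −0.22, COL4A1 at −0.36 and COL4A5 at −0.31 (adjusted p = 0.0116), and with upper-quartile scaling COL4A1 was at −0.0944 and COL4A5 at −0.0730. With barcodes of at least 1000 UFIs COL4A1 was at −0.0266 and COL4A5 at −0.0406, and with background subtracted COL4A1 was at −0.0010. With no replicate block COL4A2 was at 0.46 and COL9A3 at 0.21, and with the loading series summed COL4A2 was at 0.55, COL9A3 at 0.49, COL11A2 at 0.19 and COL4A5 at −0.0220; the causes were not tested. The median of all pairs was −0.08 with TMM, −0.19 with upper-quartile scaling, −0.42 with no scaling and −0.04 with DESeq2. With the loading series summed to 1 library, chosen after seeing the data, 3946 of all pairs passed in place of 9152; fewer libraries entered that fit. Leaving out each library in turn gave 27 to 35 collagen pairs called (15 to 17 higher in 3T3, 12 to 18 higher in 293T), 8169 to 11072 of all pairs, 22 to 23 collagen pairs past 4-fold (12 to 12 and 10 to 11) and a log2 ratio of the sums of 1.03 to 1.04. With no replicate block 28 collagen pairs were called, 16 and 12, and 8545 of all pairs, COL13A1 passed (−2.23) and COL27A1 did not (−1.29, adjusted p = 0.166). The share of loading nuclei with any collagen UFI was 50.4% (293T) and 75.3% (3T3) when thinned to 500 UFIs, and 83.4% (293T) with no thinning, in place of 74.5% and 92.5%. The offset by gene length was not run, since no human lengths were at hand. Depth limits the genes below 10 CPM, and 1 preindexed library limits every statement on it.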
